A study of Mus musculus with 10 samples.

Results

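The regions described here surround Socs3, on mouse chromosome 11, in lists of enriched regions from chromatin immunoprecipitation followed by sequencing (ChIP-seq) of macrophages. Every region of a ChIP list that overlapped a 110 kb window around the gene on genome build mm9 was taken. The window held 33 of the 114312 regions of the 9 ChIP lists. Of these, 22 were regions of RelA and 11 were regions of the glucocorticoid receptor (GR). None overlapped a region listed for input DNA, which had no region in the window. The window was chosen by the number of RelA regions that these same lists show there, so that number describes the choice and is not a finding. Regions that shared at least 1 bp were joined into sites, which gave 16 sites, numbered below from the lowest to the highest coordinate. Over lists of any treatment, RelA and GR were both listed at 6 of them, RelA alone at 8 and GR alone at 2.

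Socs3 encodes suppressor of cytokine signalling 3, a protein that binds cytokine receptors such as gp130 and the JAK kinases attached to them, blocks their activity and can direct bound proteins to degradation. It closes a feedback loop: STAT3, activated by IL-6, induces Socs3, and the protein then limits further STAT3 signalling through gp130. In macrophages the gene is also induced by bacterial lipopolysaccharide (LPS). LPS activates NF-κB through Toll-like receptor 4, and RelA (p65) is an NF-κB subunit that carries a strong transactivation domain. GR is the ligand-activated receptor through which glucocorticoids such as dexamethasone (Dex) act, and it can bind DNA itself or sit on it through other factors. Mouse genes next to Socs3 are Tha1 on one side and Pgs1 on the other, in the order of the RefSeq gene table (GRCm38.p6).

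Cells were bone marrow derived macrophages of C57BL/6J mice, and 10 libraries were used, 1 for each condition. RelA was precipitated from cells that had LPS for 0, 3 or 8 h and no Dex, and from cells that had Dex 3 h ahead of LPS for each of these times. A further RelA library had 8 h of LPS and a late dose of Dex, whose hour the labels do not state. GR was precipitated from cells given Dex, or Dex together with LPS, for times the labels leave out, after an added protein cross-linking step that the RelA cells did not receive. Input DNA came from untreated cells and is labelled as the control for the RelA libraries. No separate input was given for the GR libraries, so GR regions were set against this one too. The labels give neither the number of animals nor any pooling, and the cell type could not be checked on markers, since region lists hold no expression.

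With 1 library for each condition the spread between replicates is unknown. No test between conditions was made, and the order of 2 close values cannot be read. Intervals on shares are Wilson 95% intervals that cover counting error only. The RelA lists held 5017 regions at 3 h, 1890 at 8 h, 250 with late Dex and 75 to 84 in the other 4 conditions, and the GR lists held 55196 with Dex and 51639 with LPS and Dex. Each region carries the authors' highest tag density, which is the peak of read coverage on a scale the sources used here do not define, and the authors' score, a z-score. The lowest score listed differed between lists, from 8.88 for RelA at 3 h to 10.9 at 8 h, so that a region not listed may still carry signal below its list's limit. The number of reads behind each list is not given.

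The sequence just upstream of the gene is shown because it is the stretch of the locus for which letters were at hand, taken from RefSeq (GRCm38.p6, minus strand, chr11:117969367-117969616). Those positions belong to another build than the regions and cannot be set against the mm9 positions below, so which of the 16 sites, if any, covers this stretch was not determined. It holds the 250 bases before the annotated start, written 5′ to 3′, with 2 motif matches in capitals:
Socs3 upstream sequence: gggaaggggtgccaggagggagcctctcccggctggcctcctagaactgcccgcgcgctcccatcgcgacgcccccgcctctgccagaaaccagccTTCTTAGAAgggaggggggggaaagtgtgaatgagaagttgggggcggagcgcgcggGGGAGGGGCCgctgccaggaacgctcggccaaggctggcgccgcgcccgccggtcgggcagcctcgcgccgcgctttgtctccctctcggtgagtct

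The first match, TTCTTAGAA, lies 154 to 146 bases before the start and has the form TTCNNNGAA that STAT factors recognise. A match to this form occurred in 7.02% of the 32851 upstream sequences of this length. The second, GGGAGGGGCC, lies 97 to 88 bases before the start and has a loose NF-κB form, GGG and CC with 5 free bases between, which occurred in 45.8% of them. Both strands were searched and the matches do not overlap. The glucocorticoid response element (AGAACA and TGTTCT with 3 free bases between), AGAACA alone (contained in the former) and the AP-1 form TGANTCA were not found in these letters. They occurred in 0.00913%, 16.1% and 6.75% of the sequences. A match is a string of letters and not a measured site.

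**Figure D1:**
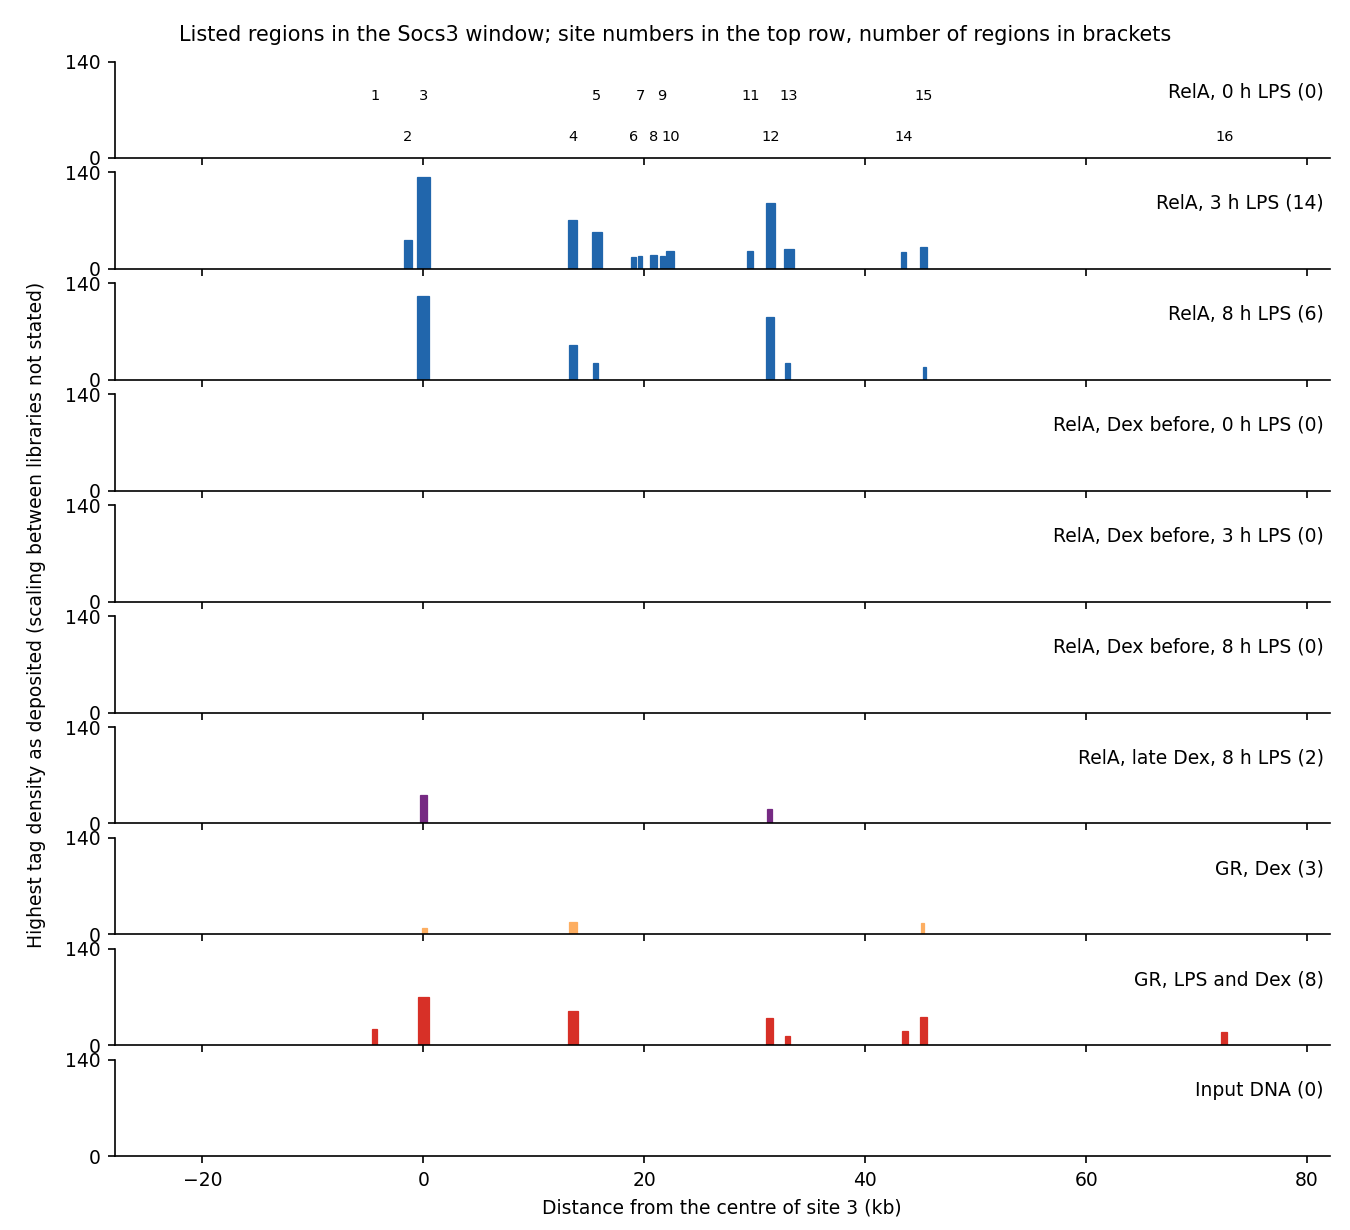
Regions listed in the window in each of the 10 libraries, drawn at their true width against the distance in kb from the centre of site 3; bar height is the highest tag density as deposited. The 14 RelA regions at 3 h fall in a 47.4 kb stretch, 6 are listed at 8 h and 2 with late Dex, and the rows for 0 h, for Dex given before LPS and for input are empty.

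After 3 h of LPS, 14 RelA regions were listed, all within 47.4 kb from 117806204 to 117853564. Outside this stretch the next RelA regions of the same list lay 746 kb below and 371 kb above, and none lay between. These 2 nearest regions beyond the window had tag densities of 15.1 and 13.8. When a stretch of the same 47.4 kb was started at each of the 5017 regions of the list, only the stretch at Socs3 held 14 whole regions, and the next fullest elsewhere held 13, from 27125626 on chromosome 12. That length is the span of the Socs3 group itself, and the window was chosen by its number of regions, so these counts and those that follow describe the choice. On a fixed grid of 23476 windows of 110 kb the median number of RelA regions was 0, 86.4% of the windows were empty, and 0% held at least 14. Gaps between neighbouring regions ran from 146 bp to 12488 bp, and 6 of the 13 gaps were under 1000 bp.

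The 14 regions differed widely in strength at 3 h. Site 3 (117807380 to 117808507) had the highest tag density, 133, with a score of 93.4, and ranked 7 of 5017 in the list by either value. Site 12 (117838947 to 117839731) followed with a density of 96.3, site 4 (117820995 to 117821887) with 71.2, site 5 (117823251 to 117824084) with 53.3 and site 2 (117806204 to 117806892) with 41.6. These 5 were all among the densest 7.81% of the list. Next came site 15 (117852931 to 117853564) with 32.4 and site 13 (117840574 to 117841501) with 28.7. The other 7 lay between 17.3 and 26.1. Over all 14 the median was 27.4, against 18.5 for the whole list, and 11 of the 14 were above that list median.

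The weak regions were mostly packed together. Sites 6 to 10 followed one another from 117826738 to 117830670, with 3 h densities of 17.3, 18.4, 20.7, 18.1 and 26.1. Sites 6, 7 and 9 had scores of 10.1, 9.68 and 10.7, all below 10.9, the lowest score in the 8 h list. Site 11 (117837216 to 117837800) had a density of 25.3 and stood 1147 bp below site 12, and site 14 (117851222 to 117851666) had 23.9 and lay just below site 15.

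**Figure D2:**
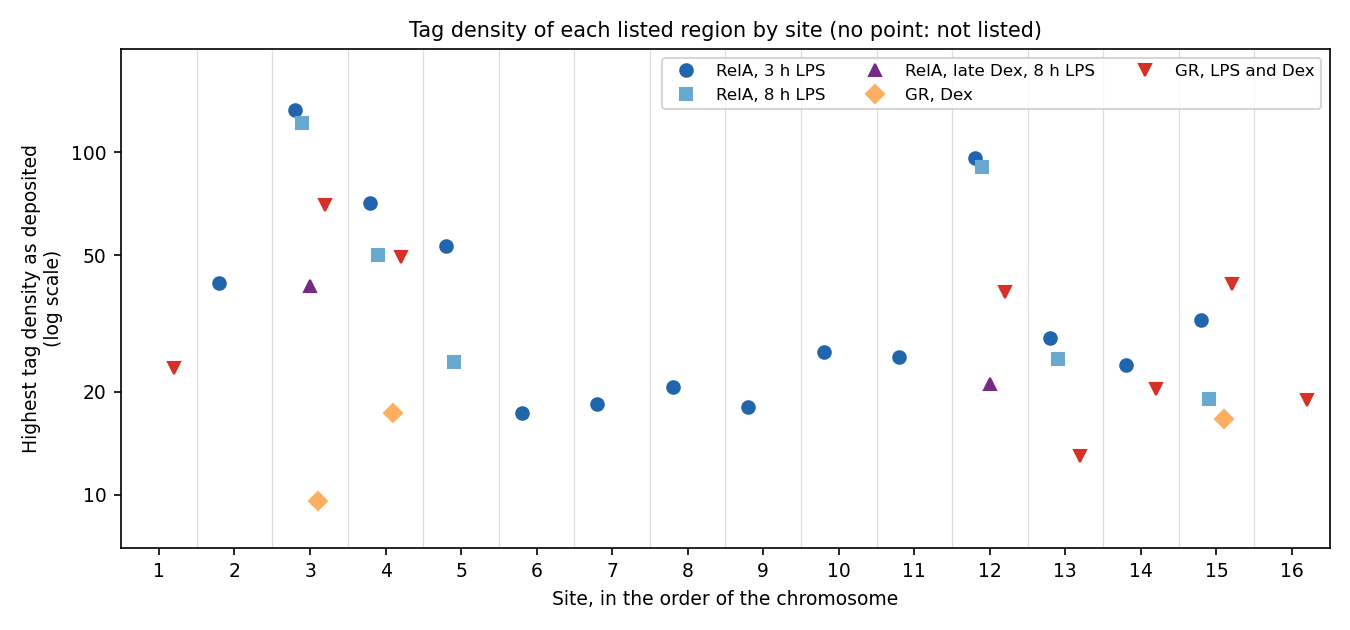
Highest tag density as deposited, on a log scale, of every listed region at sites 1 to 16 in the 5 libraries that had any; no point means not listed. RelA at 3 h and 8 h nearly coincide at sites 3 and 12, while sites 6 to 11 carry RelA at 3 h alone, and GR with Dex is lower at site 3 (9.56) than at sites 4 (17.3) and 15 (16.6).

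At 8 h of LPS fewer regions of the group were listed, and these were among its stronger sites. Of the 14 regions of 3 h, 6 were also listed at 8 h, 42.9% (21.4 to 67.4), against 31.3% of all 4972 regions outside input. In the other direction all 6 regions of 8 h were among those of 3 h, where 83.9% of the whole 8 h list was. The 6 were sites 3, 4, 5, 12, 13 and 15. The share listed again depended on strength. When the whole 3 h list was cut into 5 classes of about equal size by tag density, 8.70%, 13.3%, 20.5%, 38.3% and 75.4% were listed again, from the least dense class to the densest. In the window, 6 of the 7 regions in the densest class were listed again, 0 of 3 in the next and 0 of 4 in the middle class. Of the middle class, sites 6, 7 and 9 had 3 h scores (10.1, 9.68 and 10.7) below 10.9, the lowest of the 8 h list. With unchanged scores they would not have been listed at 8 h.

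Site 2 was the only window region of the densest class that was not listed at 8 h. It had a density of 41.6 and a score of 24.1 at 3 h. Of the 379 regions elsewhere at least as dense at 3 h, 333 were listed at 8 h, 87.9% (84.2 to 90.8). In the whole densest class, which begins at a density of 28.1, 75.4% were listed at 8 h. Most regions of this strength were thus listed again but some were not, and nothing is read from a single absence. The nearest neighbour of site 2, site 3, begins 488 bp higher and was listed at both times.

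At the 6 sites of both times, densities were 133 and 122 at site 3 (3 h and 8 h), 71.2 and 50.0 at site 4, and 53.3 and 24.5 at site 5. They were 96.3 and 90.5 at site 12, 28.7 and 24.9 at site 13, and 32.4 and 19.1 at site 15. All 6 were lower at 8 h on the deposited scale. Because that scale may differ between libraries, each ratio was read against the median ratio of the 1556 regions of both lists, 1.03. Sites 3 and 12 lay near it, with ratios of 0.922 and 0.939. Site 5 had a ratio of 0.460, which is 0.448 of the median, and only 2.12% of the shared regions had a ratio as low or lower. Site 15 with 0.591 (6.81% as low or lower) and site 4 with 0.702 (15.9%) were also in the lower part. Among the 908 shared regions at least as dense as these sites, 3.19% were as low as site 5 or lower. One site of 6, site 5, was at least 2-fold below the median, against 3.73% of all shared regions, and none was 2-fold above, against 2.89%.

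Values within 1 library are free of that scale. With site 3 taken as 100%, site 12 had 72.6% of its density at 3 h and 74.0% at 8 h, while site 4 went from 53.7% to 40.9%, site 5 from 40.2% to 20.0% and site 15 from 24.4% to 15.6%. Site 13 had 21.7% and 20.4%. The RelA regions were also narrower at 8 h at all 6 sites, from 927 to 503 bp at site 13, 833 to 463 bp at site 5 and 633 to 253 bp at site 15, but only from 1127 to 1099 bp at site 3 and 784 to 776 bp at site 12. Narrower regions at 8 h were the rule in the whole list too, at 79.3% of shared regions. At least 6 RelA regions of 8 h were held by 0.0213% of the 110 kb windows.

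No RelA region was listed in the window in resting cells, with Dex alone, or with Dex before 3 h or 8 h of LPS. Few regions of any locus were listed in those libraries. Outside input, 47 of 83 remained in resting cells and 43 of 75 with Dex alone. With Dex before 3 h and 8 h of LPS, 33 of 84 and 15 of 78 remained. The resting list met 0.744% of all 3 h regions, and the list with Dex before 3 h of LPS met 0.241%. Of the 8 h regions, 0.160% were met by the list with Dex before 8 h. Counts of 0 of 14 and 0 of 6 have upper interval limits of 21.5% and 39.0%.

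The strongest regions elsewhere were listed more often. Outside the window 7 regions were at least as dense at 3 h as site 3. Of these, 5 were listed in resting cells, 3 with Dex before 3 h of LPS, and all 7 with late Dex. Site 3 was listed with late Dex only, among these 3 libraries. At 8 h, 1 of the 7 regions at least as dense as site 3 was listed with Dex before LPS. These counts are small, and the densities of site 3 below the limits of the short lists are not known.

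With Dex given late, RelA was listed at the 2 strongest sites of the window. Site 3 had a density of 40.8 (117807643 to 117808271) and site 12 one of 21.0 (117839049 to 117839547). They make 2 of the 6 regions of 8 h, 33.3% (9.68 to 70.0), against 10.8% of all 8 h regions. In the densest class of the 8 h list, cut by tag density in the same way, 40.1% of all regions were listed with late Dex, and 2 of the 3 window regions in it were. The third was site 4, with a density of 50.0 at 8 h. Of the 191 regions elsewhere at least as dense as site 4, 59.2% (52.1 to 65.9) were listed with late Dex, so that many regions of its strength were not listed there either.

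The late Dex densities were 0.333 of the 8 h value at site 3 and 0.233 at site 12. The median ratio over the 202 regions of both lists was 0.435, on scales that may differ. Site 12 was in the low tail, with 3.47% of shared regions as low or lower, and site 3 was not, with 23.3%. Among the 57 shared regions at least as dense as these sites (geometric mean of both lists at least 43.6), the median ratio was 0.362 and 8.77% were as low as site 12. Neither site was 2-fold below the median of all shared regions, as 0.990% of them were, or 2-fold above it, as 10.4% were. Both regions were narrower than at 8 h, as 94.6% of shared regions were. Within the library with late Dex, site 12 had 51.6% of the density of site 3, against 74.0% at 8 h without Dex. The comparisons of 8 h with 3 h and of late Dex with 8 h use the same 8 h library.

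GR was listed at 8 sites with LPS and Dex and at 3 with Dex. With LPS and Dex the densities were 70.3 at site 3, 49.5 at site 4, 41.3 at site 15, 39.0 at site 12, 23.5 at site 1, 20.3 at site 14, 18.9 at site 16 and 13.0 at site 13. Sites 1 (117803288 to 117803765) and 16 (117880180 to 117880718) carried GR with no RelA. The former lay 4.42 kb below site 3 and the latter 72.5 kb above it, both outside the stretch of the RelA group. The median density of the whole list was 4.01, so all 8 regions were well above it by this measure. By the authors' score, sites 13 (13.3) and 16 (14.5) were below the list's median of 15.5. Sites 1 and 14, with 17.1 each, were just above it. GR regions are common in the genome, and 3.44% of 110 kb windows held at least 8 in this list. At the window's edges the next GR regions with LPS and Dex lay 90.0 kb below (density 11.8) and 117 kb above (52.3).

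With Dex and no LPS, GR was listed at sites 3, 4 and 15, with densities of 9.56, 17.3 and 16.6. All 3 regions were met by the list with LPS and Dex, as 35.0% of that whole list of Dex regions were. In the other direction 3 of the 8 regions with LPS and Dex, 37.5% (13.7 to 69.4), were met by the Dex list, against 37.4% of all. Such a number of GR regions was ordinary, since 34.4% of windows held at least 3. Of the 3 regions, only that of site 4 had a clear score, 22.9, in a list whose median was 15.4. The regions of sites 3 and 15 had scores of 9.44 and 9.36, in the lowest part of the list (ranks 52491 and 52952 of 55196), although by tag density they ranked 4023 and 2068. With a lowest score of 11, site 4 alone was left. Site 12, second for RelA, had no GR region with Dex. Of the 3008 regions elsewhere at least as dense as site 12 with LPS and Dex, 54.6% (52.8 to 56.4) were met by the Dex list.

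The order of the sites differed between the GR libraries. With LPS and Dex, site 4 had 70.4% and site 15 had 58.7% of the density of site 3. With Dex they had 181% and 174% of it, so that by tag density site 3 was the lowest of the 3 listed sites there and the highest of all with both agents. By mean tag density the figures with Dex were 196% and 130%. By the authors' score with Dex, site 15 (9.36) was slightly below site 3 (9.44), both near the list's limit.

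The ratio of GR density, LPS and Dex over Dex, was 7.35 at site 3, 2.86 at site 4 and 2.48 at site 15. All 3 were at least 2-fold above the median ratio of the 19179 regions of both lists, 1.12, where 12.2% of all shared regions were. Most shared regions are of low density, however. Among the 1607 that were at least as dense as these sites (geometric mean of both lists at least 25.9) the median ratio was 2.80. Sites 4 and 15 then lay at 1.02 and 0.886 of the median, and site 3 at 2.62 times it, a ratio reached or passed by 2.80% of these regions. At least 2-fold above that median were 7.47% of them. Site 3 thus stood high under either reading, and sites 4 and 15 only against the list as a whole. The score of site 3 with Dex was near the list's limit, which limits how well its ratio is known.

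**Figure D3:**
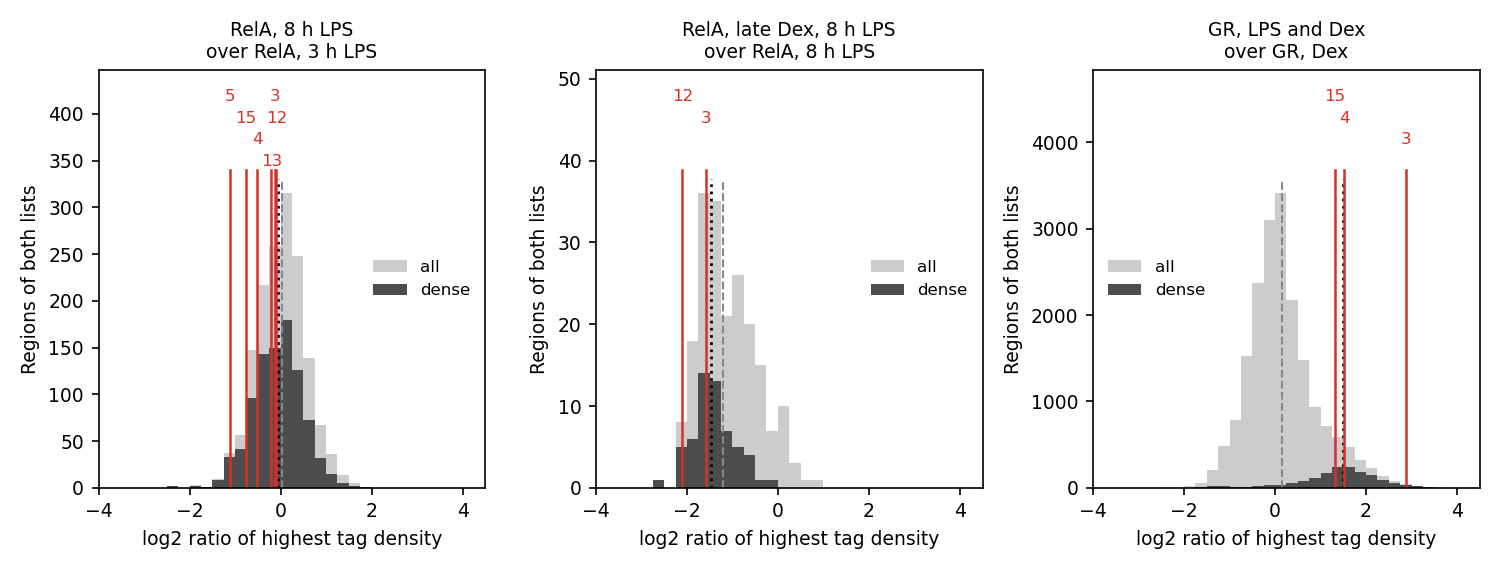
Histograms of the log2 ratio of highest tag density at regions of both lists, for all shared regions (light grey) and for those at least as dense as the window's (dark grey), with their medians as dashed and dotted lines; red lines mark the window's sites by number. In the right panel site 3, at a ratio of 7.35, lies in the upper tail of both histograms, while sites 4 and 15 lie near the median of the dense regions.

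RelA at 3 h of LPS without Dex and GR with LPS and Dex were both listed at sites 3, 4, 12, 13, 14 and 15. These lists come from cells treated differently. In cells given Dex, RelA was listed only at sites 3 and 12, with the late dose. Whether both factors bind in the same cells was not tested. Of the 14 RelA regions of 3 h, 6 met a GR region with LPS and Dex, 42.9% (21.4 to 67.4), against 62.0% of the whole list. With Dex 3 did, 21.4% (7.57 to 47.6), against 17.5%, and 1 of them, site 4, did where 50% or more of each region had to overlap. With a score of at least 11 the share was 9.09%. At 8 h, 5 of 6 met GR with LPS and Dex, 83.3% (43.6 to 97.0), against 85.8%, and 3 of 6 met GR with Dex, 50.0% (18.8 to 81.2), against 18.4%. This last share was 16.7% with an overlap of 50% or more of each region and 20.0% with a score of at least 11, as site 4 alone was then left. Shares of the whole lists under these stricter rules are not given here. The 2 regions with late Dex both met GR with LPS and Dex, as 95.1% of that list did, and 1 met GR with Dex, against 31.6%. Seen from GR, 6 of the 8 regions with LPS and Dex and all 3 with Dex met RelA at 3 h, where 6.05% and 1.59% of the whole lists did; since the window was chosen by its RelA regions, nothing is read from that contrast. For the 14 regions of 3 h the whole list's share fell inside the interval with either GR library. The intervals treat these neighbouring regions as independent, and the whole list is not matched to them in density, so this is a description only.

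The 8 RelA regions without GR were site 2 and a run of 7 in a row, sites 5 to 11, from 117823251 to 117837800, a stretch of 14.5 kb. Their 3 h densities ranged from 17.3 to 53.3 with a median of 23.0, against 23.9 to 133 with a median of 51.8 for the 6 regions with GR. Overlap with GR falls with RelA density in the whole list, from 85.5% in the densest class to 41.4% in the least dense. In the window, 5 of 7 regions of the densest class met GR with LPS and Dex, 1 of 3 in the next, where 70.6% of the list did, and 0 of 4 in the middle class, where 59.0% did. Site 5 was the strongest RelA site with no GR. Elsewhere 189 of 204 regions at least as dense at 3 h, 92.6% (88.2 to 95.5), met GR with LPS and Dex. Sites 2 and 5 were thus the 2 window regions of the densest class that did not meet GR. A share among regions at least as dense was taken for site 5 and not for site 2. Site 2 was not listed at 8 h, and site 5 had the lowest ratio of 8 h to 3 h in the window. Whether this goes with the lack of GR was not tested.

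**Figure D4:**
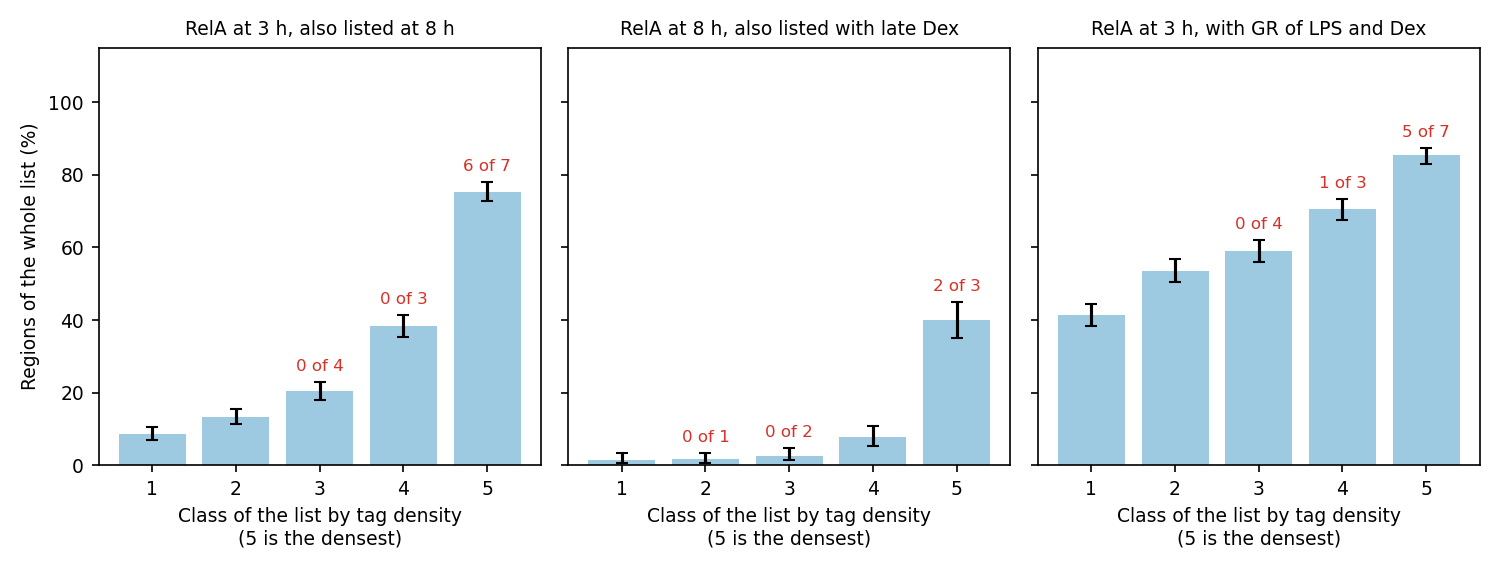
Share of each whole list that was also found in a second list, in 5 classes of rising tag density, with Wilson 95% intervals as bars; red labels give the window's regions in each class. RelA regions at 3 h were listed again at 8 h in 6 of 7 cases in the densest class and in 0 of 7 in the next 2 classes, and GR with LPS and Dex met 5 of 7 and 1 of 7.

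At sites listed for both factors, in cells treated differently, the centres of the regions lay close together. Between RelA at 3 h and GR with LPS and Dex they differed by 22.0 bp at site 3, 42.5 bp at site 4, 34.0 bp at site 12, 100.5 bp at site 13, 76.0 bp at site 14 and 11.5 bp at site 15. The median over all 3085 overlapping regions was 53.5 bp, so these distances are those of the list. Ratios of GR to RelA density have RelA as their denominator, in a window chosen by its RelA regions. The density of GR with LPS and Dex over that of RelA at 3 h was 0.405 at site 12, 0.455 at site 13, 0.530 at site 3, 0.695 at site 4, 0.850 at site 14 and 1.27 at site 15, all below the median ratio of 1.5. At 4 of the 6 the ratio was at least 2-fold below that median, against 13.8% of all. How far the choice of the window by RelA bears on these ratios was not tested, so no low GR signal is read from them. With Dex, the ratio at site 3 was 0.0721, the lowest of the 870 regions that RelA at 3 h shared with that GR list. The GR region of site 3 with Dex had a score of 9.44, near the list's limit, and the same choice of window applies.

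Site 3 was listed in 5 libraries, namely both GR libraries and those of RelA at 3 h, 8 h and after the late dose of Dex. In all 65 RelA regions of 3 h had regions in these 5 lists, 1.31% of the 4972, and 46 of the 65 were in none of the resting or pretreated lists, as site 3 was. The 3 others nearest to it in the 5 densities, by Euclidean distance of log2 values, were on chromosome 3 from 78976843 to 78978080, on chromosome 10 from 37057707 to 37058936 and on chromosome 11 from 83462277 to 83463425, at distances of 0.95, 1.23 and 1.26. Their densities of GR with Dex, 15.5, 15.5 and 16.7, were all above the 9.56 of site 3, and their densities of RelA at 3 h, 94.7, 107 and 97.7, all below its 133. The first 2 were also listed in resting cells, unlike site 3, and the third was not.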

How the data were processed

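The authors deposited 1 list of enriched regions for each library, on mm9. CASAVA is the one tool named in the submitters' processing notes. The region caller and its threshold, and how input was used, are not given in the sources used here. Tag density, highest and mean, is a signal per the file headers and has no stated scaling. The authors' score is headed as a z-score, and their deposited p-values were not used. Positions are printed as deposited.

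Regions were joined, overlapped (at least 1 bp) and counted with Python 3.11.15, pandas 2.3.3 and numpy 2.4.6, and the overlap step was tested on simulated lists. Regions on input were left out of overlaps and ratios. Where a region met several, the densest was used. Ratios at least 2-fold from the median of shared regions were counted. Every site with RelA was described in full, and GR sites where the density was at least 10. Alternatives were an overlap of 50% of both regions, centres within 250 bp, a lowest score of 11, a GR density of at least 10, other handling of input, joining within 500 bp, a window of 55 kb, and mean density or score for the highest density. The members, lists and comparisons were chosen with earlier results of these data known. The upstream sequence and gene names come from RefSeq tables of GRCm38.p6; the sequences under the regions were not used here.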

Additional observations from a re-analysis of the deposited data

How the results depend on the processing

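Of 104 alternatives to 23 results, 97 left a share within its interval, a count within 1.5 times, or a ratio within the spread between the window's sites. With so few regions these limits are wide, so staying within them says little on stability. For RelA at 8 h meeting GR with Dex, 50.0% became 20.0% with a score of at least 11 and still counted among the 97. Part of these 97 could not have moved and say nothing on stability. They are the alternatives on lists with no region in the window, and those on input, which no window region overlapped. The other 7 all concern GR with Dex, whose regions at sites 3 and 15 are narrow and of low score. With a score of at least 11, GR with Dex had 1 region in the window in place of 3, and it met 12.5% of the window's regions of LPS and Dex. Under an overlap of 50% or more of each region, GR with Dex met 7.14% of the window's regions for RelA at 3 h and 16.7% at 8 h. It met 12.5% for GR with LPS and Dex, and 33.3% of the GR regions with Dex were met by the latter list. That rule lowers the whole lists too: the regions shared by both GR lists fell from 19179 to 12786. Shares of the whole lists under the stricter rules are not given here, so these drops are not particular to the window. Against shared regions as dense as the window's, an alternative added after the data had been seen, the median log2 ratio of GR fell from 1.36 to 0.03 above the median. With 1 library for each condition no replicate could be left out. No paired analysis was possible because no condition had a second library. Depth is unknown, so regions not listed may carry signal below a list's limit.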
